A study of Mus musculus with 8 samples.

Results

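Cholesterol and fatty acid synthesis was examined through 31 genes in calf muscle (gastrocnemius) of mice with and without Gcn5, a histone acetyltransferase, in muscle fibres. The members were taken by name: 16 enzymes of the mevalonate and sterol pathway, 10 enzymes of fatty acid synthesis and 5 regulators of both. All 31 were measured among the 19938 genes that had a transcript cluster, the array's unit of measurement, annotated to that gene alone. The values that follow are on a log2 scale, so a difference of 1 is a doubling. The knockout mice, Gcn5skm-/-, were HSAcre Tg/0 on a Gcn5 L2/L2 background, and the wild-type mice, Gcn5skm+/+, were HSAcre 0/0 with the same Gcn5 L2/L2 alleles. Both groups thus carried the floxed Gcn5 gene, and only the knockouts carried Cre, driven by the human skeletal actin promoter that is active in muscle fibres. Other cell types of the muscle keep the gene, and effects of Cre itself and of the deletion cannot be told apart. There were 4 male mice per genotype, 6 months old, on chow and fasted for 5 h, and each animal gave 1 Affymetrix array. Precision is limited by this small number of arrays. Kat2a, which encodes Gcn5, was between 6.43 and 6.50 in the wild types and between 5.73 and 5.84 in the knockouts, so each array matched its label (limma adjusted p = 0.0319).

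Cells build cholesterol from acetyl-CoA through mevalonate, farnesyl diphosphate, squalene and lanosterol, and build fatty acids from the same acetyl-CoA through malonyl-CoA, followed by elongation and desaturation. The membrane-bound transcription factors SREBP1 and SREBP2 switch on both sets of enzymes. SREBP2 acts mainly on sterol genes and SREBP1 mainly on fatty acid genes. SCAP escorts the SREBP proteins to the Golgi apparatus, where they are cut and released, and the INSIG proteins hold SCAP back when sterols are plentiful. Both SREBP proteins work with NF-Y and Sp1, general transcription factors that bind near the start of many of these genes. In adult muscle these pathways run at a low rate, and fatty acid synthesis is restrained by fasting.

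The promoters of 5 members are printed with letter matches to the NF-Y box and to a sterol regulatory element type marked where they occur. Elovl6 and Acacb were the members whose groups did not overlap, Fasn and Hsd17b7 had wide differences in their branches, and Hmgcs1 carried the single sterol-element match. Each is the 250 bases before the RefSeq start in build GRCm38.p6, 5′ to 3′ along the gene. Capitals mark CCAAT, the NF-Y box, on either strand, and in Hmgcs1 also TCACNCCAC, a sterol regulatory element type.
Elovl6 (chr3:129532136-129532385, plus strand): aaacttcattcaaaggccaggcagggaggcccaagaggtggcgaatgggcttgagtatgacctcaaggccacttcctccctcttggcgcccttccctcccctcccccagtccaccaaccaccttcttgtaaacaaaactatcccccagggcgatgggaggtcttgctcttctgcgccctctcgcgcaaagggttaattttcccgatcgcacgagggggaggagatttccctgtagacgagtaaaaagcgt
Acacb (chr5:114165268-114165517, plus strand): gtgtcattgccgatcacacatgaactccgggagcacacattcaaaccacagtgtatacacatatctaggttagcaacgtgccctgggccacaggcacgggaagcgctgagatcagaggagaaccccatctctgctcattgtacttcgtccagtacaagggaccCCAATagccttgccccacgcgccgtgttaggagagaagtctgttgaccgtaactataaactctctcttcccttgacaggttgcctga
Fasn (chr11:120824548-120824797, minus strand): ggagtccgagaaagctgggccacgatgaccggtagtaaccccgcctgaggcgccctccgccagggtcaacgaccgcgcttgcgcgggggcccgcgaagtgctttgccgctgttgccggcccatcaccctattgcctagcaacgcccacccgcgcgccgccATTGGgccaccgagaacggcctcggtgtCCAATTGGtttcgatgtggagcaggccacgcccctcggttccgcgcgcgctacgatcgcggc
Hsd17b7 (chr1:169969206-169969455, minus strand): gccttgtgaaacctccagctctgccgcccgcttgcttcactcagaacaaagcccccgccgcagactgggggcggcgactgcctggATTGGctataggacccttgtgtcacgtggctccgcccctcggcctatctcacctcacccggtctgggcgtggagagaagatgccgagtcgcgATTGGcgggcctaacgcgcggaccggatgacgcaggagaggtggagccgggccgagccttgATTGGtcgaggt
Hmgcs1 (chr13:119690101-119690350, plus strand): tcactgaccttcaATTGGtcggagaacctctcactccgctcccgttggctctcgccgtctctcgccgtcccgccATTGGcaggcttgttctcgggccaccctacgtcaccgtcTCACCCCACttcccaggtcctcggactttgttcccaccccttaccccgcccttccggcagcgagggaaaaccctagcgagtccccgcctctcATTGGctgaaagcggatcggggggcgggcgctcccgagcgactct
RefSeq promoter windows of 250 bases before and 50 after a start were found for 26 of the 31 members. The NF-Y box CCAAT was found on either strand in at least 1 window of 13 of the 13 sterol enzymes with a window, of 6 of 8 fatty acid enzymes and of 4 of 5 regulators, against 41.1% of all genes in the table. The Sp1 box GGGCGG was in a window of 12 of 13 sterol enzymes, 3 of 8 fatty acid enzymes and 5 of 5 regulators, against 38.2% of all genes. The E-box CACGTG was in 3 of 13, 1 of 8 and 2 of 5, against 8.09%. TCACNCCAC was in 1 of the 26 members, Hmgcs1, and in 1.44% of all genes. In Fasn the CCAAT matches that begin 62 and 59 bases before the start overlap on opposite strands. In the printed part of Elovl6 neither motif was matched. These matches are exact letters in short windows and describe sequence only.

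None of the 31 members passed a 5% false discovery rate over all genes in the limma test, at which 3 of the 19938 genes, 0.0150%, were called. The smallest limma adjusted p of a member was 0.655, for Elovl6. Mean expression was lower in knockout muscle for 26 of 31 members, where 54.7% of all genes had a lower mean. The members were read from the same arrays and shifted together in some of them, so they do not count as independent genes. At an unadjusted limma p under 0.05 there were 2 members, Elovl6 and Acly, both lower, against 3.39% of all genes lower and 2.34% higher at that p. All 4 knockouts lay below all 4 wild types for 2 members, Elovl6 and Acacb, against 2.14% of all genes. No member had all knockouts above all wild types, against 1.48% of all genes. The members counted at the unadjusted p and by separate groups were all fatty acid enzymes, whereas the 26 with a lower mean were 10 of 10 fatty acid enzymes, 11 of 16 sterol enzymes and 5 of 5 regulators. The median difference was -0.22 for the fatty acid enzymes, compared with -0.07 for the sterol enzymes, -0.05 for the regulators and -0.01 over all genes. Whether the branches differ from each other was not tested.

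**Figure D1:**
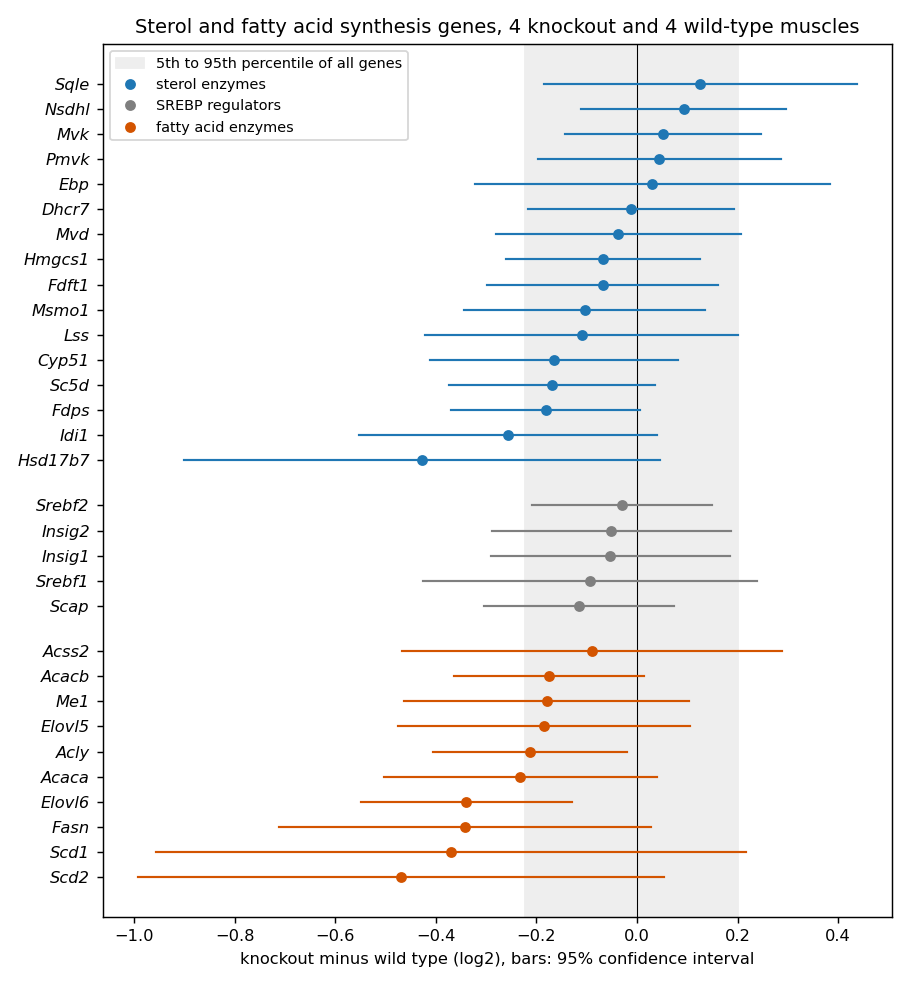
Knockout minus wild-type difference (log2) of each member with its 95% confidence interval from limma, for 16 sterol enzymes, 5 SREBP regulators and 10 fatty acid enzymes; the grey band spans the 5th to 95th percentile of all genes, -0.22 to 0.20. All 10 fatty acid enzymes lie left of 0, and only the intervals of Elovl6 and Acly do not reach it.

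The 10 fatty acid enzymes were described in the order in which carbon passes through them. Acly, ATP citrate lyase, makes cytosolic acetyl-CoA from citrate. It measured 5.64, 5.91, 5.87 and 5.88 in wild types 1 to 4 and 5.67, 5.59, 5.63 and 5.55 in knockouts 1 to 4. Wild type 1 lay within the knockout range and the other three wild types lay above every knockout. The difference was -0.21 (SE 0.09), or 0.863 of the wild-type level, with a limma unadjusted p of 0.0331 and a limma adjusted p of 0.861. Acss2, the synthetase that makes acetyl-CoA from acetate, spread from 7.05 to 7.50 in wild type and from 6.81 to 7.65 in knockout. Its difference of -0.09 was smaller than the spread between animals, and it was 0.06 without knockout 4. Me1, cytosolic malic enzyme, which supplies NADPH, differed by -0.18 (SE 0.13, limma adjusted p = 0.880), and its groups overlapped. It was -0.11 without wild type 2, knockout 2 or knockout 3, and its other transcript cluster on the array gave -0.20.

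Acetyl-CoA carboxylase makes malonyl-CoA and exists in a form for synthesis, encoded by Acaca, and a form at the mitochondrial membrane, encoded by Acacb, whose product restrains entry of fatty acids into mitochondria. Acacb measured 8.89, 9.08, 8.96 and 9.14 in wild types 1 to 4 and 8.85, 8.88, 8.87 and 8.76 in knockouts 1 to 4. All knockouts lay below all wild types, but wild type 1 and knockout 2 were almost equal. The difference was -0.18 (SE 0.09), or 0.885 of the wild-type level (limma unadjusted p = 0.0655, limma adjusted p = 0.869). Acaca differed by -0.23 (SE 0.12, limma adjusted p = 0.871), with wild types from 5.91 to 6.52 and knockouts from 5.89 to 6.18. The Acaca difference was -0.13 without wild type 4, and its other cluster gave -0.12.

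Fasn, fatty acid synthase, builds palmitate from malonyl-CoA. It measured 6.21, 6.40, 7.06 and 6.75 in wild types 1 to 4 and 6.05, 6.26, 6.18 and 6.57 in knockouts 1 to 4. Wild types 3 and 4 stood highest, wild types 1 and 2 lay among the knockouts, and the groups overlapped. The difference was -0.34 (SE 0.17), or 0.789 of the wild-type level (limma unadjusted p = 0.0670, limma adjusted p = 0.869), and it was -0.19 without wild type 3. Wild type 3 was also the array with the highest level of Schwann cell markers, though the other arrays did not all follow, as given further on.

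Elongases and desaturases turn palmitate into longer and monounsaturated fatty acids. Elovl6, which elongates palmitate to stearate, measured 4.83, 4.59, 4.74 and 4.62 in wild types 1 to 4 and 4.33, 4.19, 4.51 and 4.40 in knockouts 1 to 4. Every knockout was below every wild type, and knockout 3 and wild type 2 were closest. Elovl6 was not a bright transcript, with a mean of 4.53 over the 8 arrays, above that of only 40.4% of genes. The difference was -0.34 (SE 0.10; 95% confidence interval -0.55 to -0.13), or 0.790 of the wild-type level, with a limma unadjusted p of 0.00413 that did not pass over all genes. When each array was left out in turn, the Elovl6 difference stayed between -0.39 and -0.28 and its limma adjusted p between 0.552 and 0.997. Elovl5, which elongates polyunsaturated fatty acids, differed by -0.18 (SE 0.13, limma adjusted p = 0.880), and its groups overlapped. It was -0.30 without wild type 1 and -0.09 without wild type 4.

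Scd1 and Scd2 encode stearoyl-CoA desaturases, which make oleate and palmitoleate. Scd1 measured 9.76, 8.89, 9.79 and 9.73 in wild types 1 to 4 and 8.30, 9.25, 9.60 and 9.53 in knockouts 1 to 4. Wild type 2 and knockout 1 were far below the other arrays of their groups, and the remaining knockouts lay below the remaining wild types. The difference of -0.37 (SE 0.27, limma adjusted p = 0.880) was -0.08 without knockout 1 and -0.59 without wild type 2. Scd2, described by array because of its spread and so chosen after its values were seen, measured 7.34, 8.17, 8.18 and 8.22 in wild types 1 to 4 and 8.24, 7.31, 7.19 and 7.29 in knockouts 1 to 4. It stood near 8.2 in wild types 2, 3 and 4 and in knockout 1, and near 7.3 in the other four arrays. Its difference was the widest of the branch at -0.47 (SE 0.24, limma adjusted p = 0.869), but its pooled SD of 0.461 exceeded that of 99.3% of all genes. The Scd2 difference was -0.68 without wild type 1 and -0.71 without knockout 1. The arrays at which Scd1 and Scd2 stood apart were not the same, apart from knockout 1, where Scd1 was lowest and Scd2 highest of the knockouts. Scd genes are close paralogs, and whether their probes share transcripts is not known here.

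**Figure D2:**
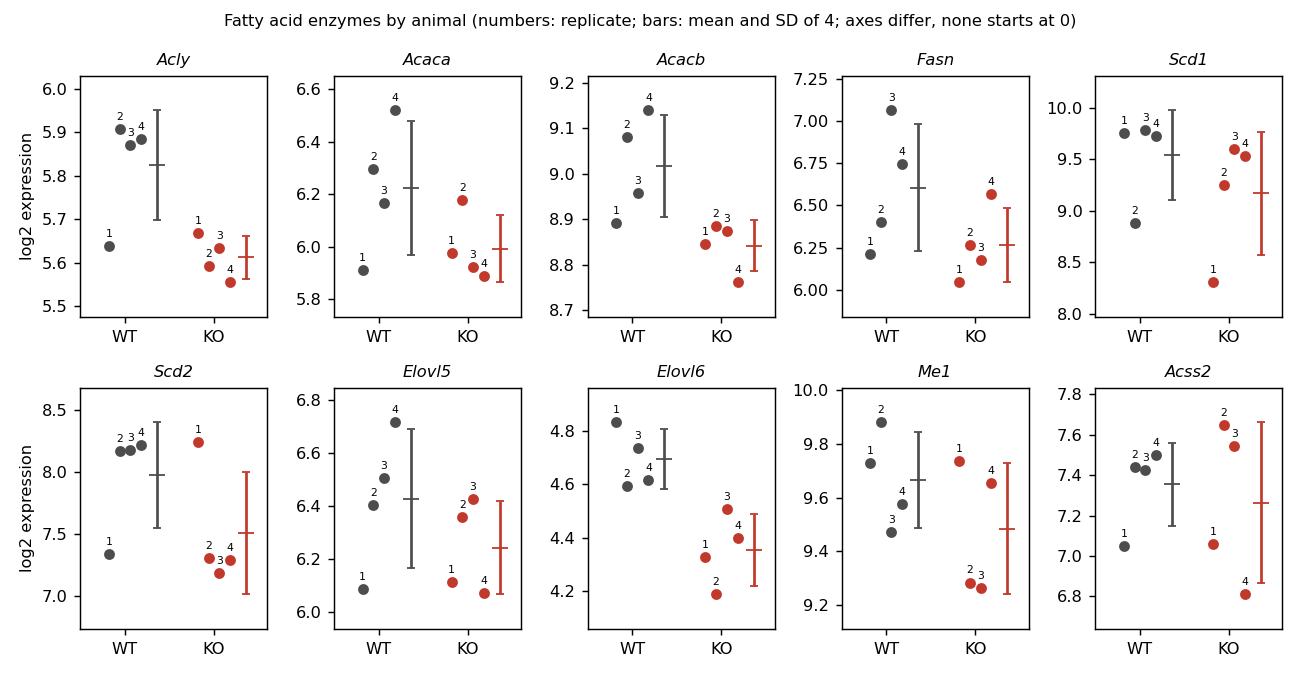
Log2 expression of the 10 fatty acid enzymes in each animal, wild type (WT) in grey and knockout (KO) in red, with the replicate number above each point and bars for the mean and SD of 4; vertical axes differ and do not start at 0. The groups are apart for Acacb and Elovl6, and Scd2 falls into a high and a low level in both genotypes.

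Averaged over the 10 fatty acid enzymes, the level was 7.14, 7.31, 7.42 and 7.46 in wild types 1 to 4 and 7.03, 7.09, 7.11 and 7.05 in knockouts 1 to 4. The wild types spread widely (SD 0.142) and the knockouts little (SD 0.0375), and wild type 1 was closer to the knockouts than to wild types 3 and 4. The median difference of the branch stayed between -0.30 and -0.20 when each array was left out, with all 10 enzymes lower in 7 of those 8 fits and 9 of 10 lower without knockout 4, where Acss2 turned. Without wild type 1 the number at an unadjusted limma p under 0.05 was 7 of 10 in place of 2, while over all 19938 genes it was 1523 in place of 1142. Without wild type 3, wild type 4 or knockout 3 it was 1 of 10, with 1498, 836 and 938 of all genes. Without wild type 2 or knockout 1 it was 3 of 10, with 1396 and 910 of all genes. Without knockout 2 or knockout 4 it was 2 of 10, with 917 and 893 of all genes. Without wild type 2 and knockout 4 together, the median was -0.17 and 9 of 10 were lower.

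**Figure D3:**
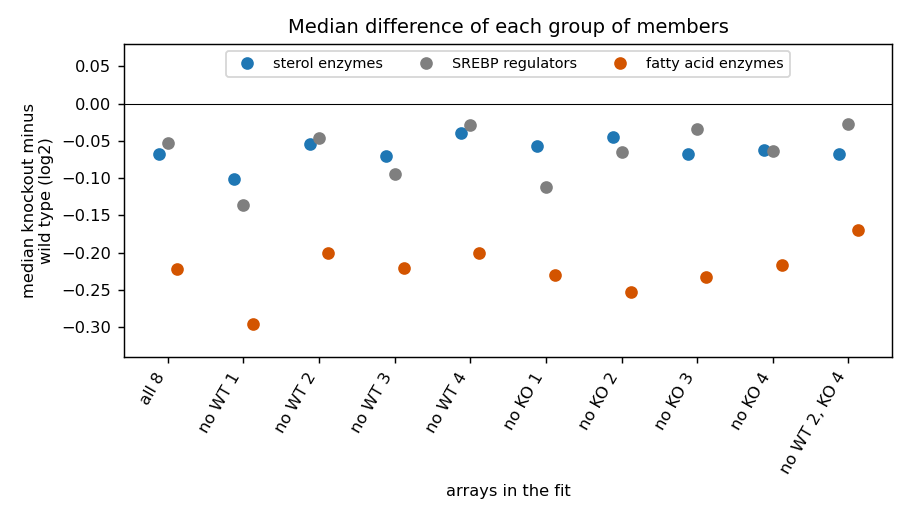
Median knockout minus wild-type difference (log2) of the sterol enzymes, regulators and fatty acid enzymes with all 8 arrays and with arrays left out. The fatty acid median stays lowest, from -0.30 to -0.17, and the sterol and regulator medians stay between -0.14 and 0.

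The sterol branch begins with Hmgcs1, the cytosolic HMG-CoA synthase. It measured 6.23, 6.42, 6.29 and 6.41 in wild types 1 to 4 and 6.24, 6.15, 6.30 and 6.39 in knockouts 1 to 4. The groups overlapped, and the difference was -0.07 (SE 0.09, 95% confidence interval -0.26 to 0.13, limma adjusted p = 0.936). Mevalonate kinase (Mvk), phosphomevalonate kinase (Pmvk) and mevalonate diphosphate decarboxylase (Mvd), which turn mevalonate into isopentenyl diphosphate, differed by 0.05, 0.04 and -0.04. All of these are within their SE of 0.09 to 0.11.

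Idi1 and Fdps make the isoprenoid chain. Idi1, isopentenyl diphosphate isomerase, measured 4.84, 5.51, 4.90 and 5.26 in wild types 1 to 4 and 4.89, 4.84, 4.77 and 4.98 in knockouts 1 to 4. Wild types 2 and 4 stood above the rest, while wild types 1 and 3 lay within the knockout range. The Idi1 difference was -0.26 (SE 0.14, limma unadjusted p = 0.0832, limma adjusted p = 0.869), -0.27 in its other cluster, and -0.13 without wild type 2. Fdps, farnesyl diphosphate synthase, measured 6.18, 6.04, 6.12 and 6.13 in wild types 1 to 4 and 6.07, 5.90, 5.82 and 5.95 in knockouts 1 to 4. Only knockout 1 reached into the wild-type range, above wild type 2. The Fdps difference was -0.18 (SE 0.09), or 0.882 of the wild-type level, the smallest unadjusted limma p of the branch at 0.0559 (limma adjusted p = 0.861).

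Squalene is made by Fdft1, oxidised by Sqle and closed to lanosterol by Lss. Their differences were -0.07, 0.13 and -0.11 (limma adjusted p from 0.931 to 0.940), and the other Fdft1 cluster gave 0.03. Sqle had a mean of 3.51 over the 8 arrays, above that of only 20.6% of genes, so it was among the dimmer transcripts. Cyp51, Msmo1, Nsdhl, Hsd17b7 and Ebp then remove methyl groups and move the double bond, and Sc5d and Dhcr7 finish the sterol. Cyp51 and Msmo1 differed by -0.16 and -0.10, Nsdhl and Ebp by 0.09 and 0.03, and Dhcr7 by -0.01, all with overlapping groups and limma adjusted p values from 0.877 to 0.990. Cyp51 was -0.09 without wild type 2 and -0.25 without wild type 4. Cyp51, Lss and Msmo1 were not bright either, with means above those of only 30.3%, 38.0% and 39.6% of genes.

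Hsd17b7, the sterol 3-keto reductase, had the widest difference of the sterol branch. It measured 7.40, 7.29, 6.19 and 7.02 in wild types 1 to 4 and 6.77, 6.67, 6.39 and 6.36 in knockouts 1 to 4. Wild type 3 was the lowest of all 8 arrays and the other three wild types were above every knockout. The difference was -0.43 (SE 0.22, limma unadjusted p = 0.0732, limma adjusted p = 0.869). Without wild type 3 it was -0.69 with a limma adjusted p of 0.166, the smallest of any member under any alternative, and without wild type 1 it was -0.28. Sc5d, sterol C5-desaturase, measured 6.90, 7.13, 6.88 and 7.05 in wild types 1 to 4 and 6.77, 6.83, 6.72 and 6.96 in knockouts 1 to 4. Knockout 4 lay within the wild-type range and the other three knockouts lay below it. The Sc5d difference was -0.17 (SE 0.09, limma unadjusted p = 0.0959, limma adjusted p = 0.876).

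Averaged over the 16 sterol enzymes, the level lay between 5.54 and 5.68 in wild types and between 5.48 and 5.56 in knockouts, and the groups overlapped. Wild type 2, the array with the lowest mean correlation with the others (0.987), was the highest of the 8 for 7 of 16 sterol enzymes and the lowest for 4. The median difference of the branch was -0.05 without wild type 2 and lay between -0.10 and -0.04 when each array was left out. Adding Srebf2, Scap, Insig1 and Insig2 to the sterol enzymes gave a median of -0.06, and adding Srebf1 to the fatty acid enzymes gave -0.21.

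**Figure D4:**
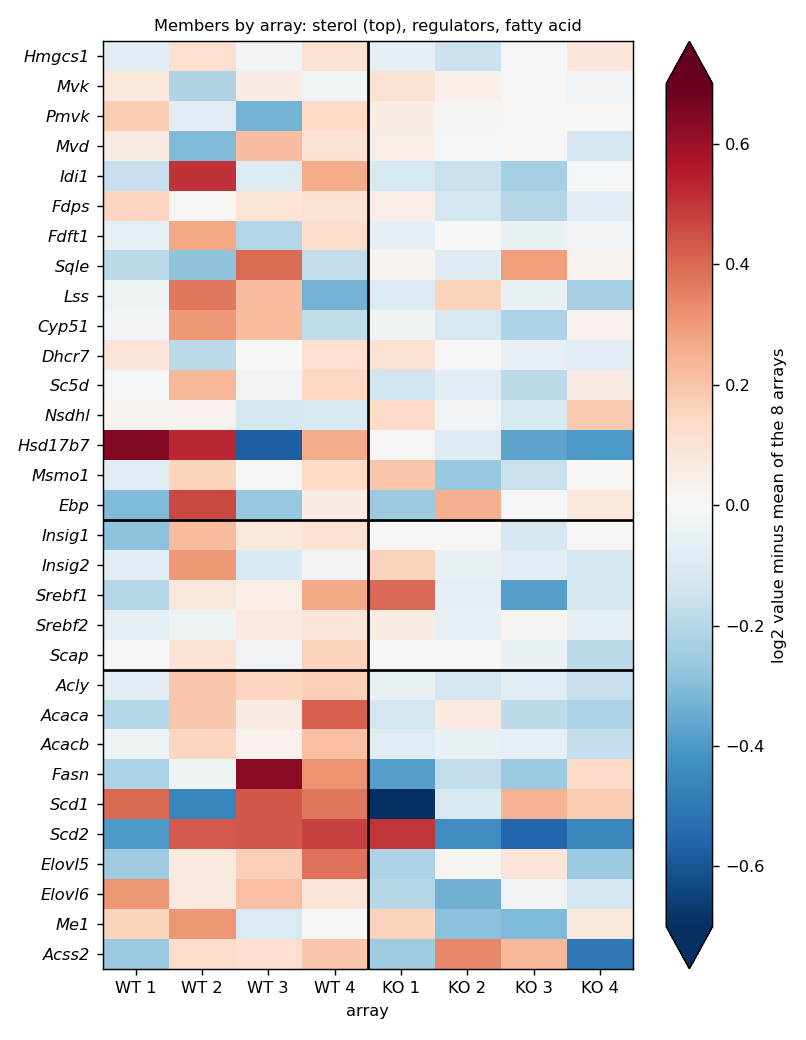
Log2 value of each member minus its mean over the 8 arrays, with sterol enzymes at the top, regulators in the middle and fatty acid enzymes at the bottom, for wild types (WT) and knockouts (KO) 1 to 4; red is above and blue below the gene's own mean. For the fatty acid enzymes 8, 9 and 10 of 10 are above their own mean in wild types 2, 3 and 4, and 3 of 10 in wild type 1 and 2 or 3 of 10 in each knockout, and wild type 2 stands out in both directions among sterol enzymes.

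Among the regulators 4 of 5 differed by less than the SD within either group, and Scap was the exception. Srebf1, which encodes SREBP1, measured 7.08, 7.36, 7.33 and 7.55 in wild types 1 to 4 and 7.68, 7.22, 6.89 and 7.15 in knockouts 1 to 4. Knockout 1 was the highest and knockout 3 the lowest of all arrays, and the difference of -0.09 (SE 0.15, limma adjusted p = 0.945) became 0.02 without knockout 3. Srebf2, which encodes SREBP2, measured 6.15, 6.18, 6.28 and 6.31 in wild types 1 to 4 and 6.27, 6.16, 6.23 and 6.15 in knockouts 1 to 4. Its groups covered almost the same range, with a difference of -0.03 (95% confidence interval -0.21 to 0.15). Insig1, itself a well-known SREBP target, measured 6.09, 6.60, 6.45 and 6.48 in wild types 1 to 4 and 6.38, 6.39, 6.26 and 6.39 in knockouts 1 to 4. The knockouts lay inside the wild-type range, and the difference was -0.05 (95% confidence interval -0.29 to 0.19, limma adjusted p = 0.961). Scap measured 6.87, 6.98, 6.85 and 7.04 in wild types 1 to 4 and 6.89, 6.87, 6.83 and 6.69 in knockouts 1 to 4. Knockout 4 was its lowest array, and the difference was -0.12 (SE 0.09, limma adjusted p = 0.889), above its SD of 0.09 in each group, and -0.07 without knockout 4. Insig2 differed by -0.05. With array weights, or without wild type 2, Insig1 and Insig2 were above 0.

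The wider pathway was described by 9 further lists, of which 83 of 98 entries were measured. None of the 83 genes passed over all genes, and 50 (60.2%) had a lower mean in knockout, against 54.7% of all genes. At an unadjusted limma p under 0.05, 4 were lower and 0 higher, against 3.39% and 2.34% of all genes. All 4 knockouts lay below all 4 wild types for 2 of the 83, Scd3 and Acsl4, against 2.14% of all genes. Other genes of fatty acid synthesis, elongation and desaturation were lower in 17 of 22 cases with a median of -0.06. Their list mean was lower in each knockout (highest 5.828) than in each wild type (lowest 5.829), though the groups almost touched. How often the mean of a list is apart in this way was not counted, and the shares over all genes are for single genes. Among them Scd3, another desaturase, was below every wild type in all 4 knockouts (4.09 ± 0.21 against 3.77 ± 0.05, SD, n = 4 each; difference -0.32, limma adjusted p = 0.813). Scd3 was dim, with a mean of 3.93 over the 8 arrays, above that of only 28.2% of genes. Hacd1, also in that list and the dehydratase of the elongation cycle that is prominent in muscle, differed by -0.30 (limma adjusted p = 0.861). Of genes that supply cytosolic NADPH 3 of 6 were lower, with transketolase (Tkt) at -0.24 and Pgls at -0.08. Of triglyceride and phospholipid genes 8 of 14 were lower (median -0.02), with the acyl-CoA synthetase Acsl4 at -0.29, below every wild type in all 4 knockouts, and Dgat1 at -0.15. AMP-activated kinase, which inhibits both carboxylases, had 6 of 8 subunit or upstream genes lower, with Prkag2 at -0.22 and Prkag3 at -0.19.

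Around the sterol branch, 1 of 4 further sterol enzymes was lower, with Tm7sf2 at -0.08 and Idi2 at 0.06. Genes for other products of mevalonate were lower in 5 of 6 cases (median -0.08), with Nus1 at -0.12 and Coq2 at -0.08. Cholesterol uptake and transport genes were lower in 3 of 9 cases. Lipa, lysosomal acid lipase, measured 5.89 ± 0.25 in wild type and 6.33 ± 0.52 in knockout (SD, n = 4 each; limma adjusted p = 0.869), with 7.07 in knockout 4, and Tmem97 differed by 0.20. Genes that process SREBP or degrade its targets were lower in 4 of 7 cases, with the ubiquitin ligase genes Rnf145 at -0.17 and Rnf139 at -0.16. Liver X receptor and efflux genes were lower in 3 of 7 cases, with Cyp27a1 at -0.18 and Apoe at 0.16.

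Markers of the cell types in the sample were measured beside the members, because several of these cells are known to make lipid. The mean of 10 muscle fibre markers was 12.08 to 12.19 in wild types and 11.95 to 12.16 in knockouts, lowest in knockout 4, and 7 of 10 were lower in knockout with none past the limma threshold. Myh1, a fast myosin, and Mb, myoglobin, were also lowest in knockout 4 (10.28 and 10.60). Des, desmin, was below every wild type in all 4 knockouts (difference -0.09), as were 2.14% of all genes. Hepatocyte genes, which this tissue should lack, had list means between 3.63 and 3.89. Their single genes ranged widely, from a mean of 2.61 for Cyp7a1 to 5.18 for Apoa1, above that of 53.8% of genes. The list mean therefore does not mark a level above which a transcript is present. Myelinating Schwann cells, which make much cholesterol and fatty acid, were followed by 9 of 12 markers. Their list mean was 5.23, 4.97, 5.74 and 5.42 in wild types 1 to 4 and 5.17, 5.05, 5.41 and 5.03 in knockouts 1 to 4. Of the 9 markers 7 were lower in knockout, 2 of them at an unadjusted limma p under 0.05. Over all genes 3.39% were lower at that p. Wild type 3 was highest for these markers and for Fasn, but the other arrays did not all follow. Knockout 3 nearly matched wild type 4 in the Schwann mean, with Fasn at 6.18 against 6.75. Knockout 4 had the lowest Schwann mean of the knockouts and their highest Fasn, 6.57. The part of wild type 3 in the Fasn difference was not tested.

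Adipocytes are a main site of fatty acid synthesis. Of 10 adipocyte markers 8 were measured, 4 lower and 4 higher, and none of the 8 lay at 0. The adipocyte mean was 6.46, 5.58, 6.14 and 6.28 in wild types 1 to 4 and 5.66, 5.90, 6.28 and 6.60 in knockouts 1 to 4, with a difference of only -0.01 between genotypes. It was lowest in wild type 2 and knockout 1, the arrays in which Scd1 was lowest of their groups. Slow-fibre markers ranged from 6.10 to 8.13 in wild types and from 5.35 to 8.69 in knockouts, lowest in knockout 4. There 5 of the 10 fatty acid enzymes had their lowest value, but the mean of the 10 was lowest in knockout 1, at 7.03. Slow-fibre markers were highest in knockouts 2 and 3 (8.33 and 8.69), where the fatty acid mean was 7.09 and 7.11. Endothelial means were 7.05, 7.07, 7.32 and 7.39 in wild types 1 to 4. In knockouts 1 to 4 they were 6.96, 7.35, 7.15 and 7.01. Wild types 3 and 4 were thus the highest wild types, as for Fasn, but knockout 2 at 7.35 had Fasn at 6.26. Macrophage markers were higher in 13 of 15 cases, with list means from 5.56 to 5.68 in wild types and from 5.71 to 6.33 in knockouts. The groups did not overlap, but wild type 3 at 5.68 and knockout 2 at 5.71 were close, and knockout 4 was highest at 6.33. How often a list mean is apart in this way was not counted. Of the 15 markers 7 were higher at an unadjusted limma p under 0.05, against 2.34% of all genes. All 4 knockouts lay above all 4 wild types for 3 of the 15, against 1.48% of all genes. Fibroblast means spanned 7.38 to 7.57 in wild types and 7.44 to 7.66 in knockouts, and the 2 erythroid markers differed by 0.15 and 0.17. In a bulk sample fewer cells of a type and less RNA per cell cannot be told apart, and the part of these cells in the member differences was not tested.

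**Figure D5:**
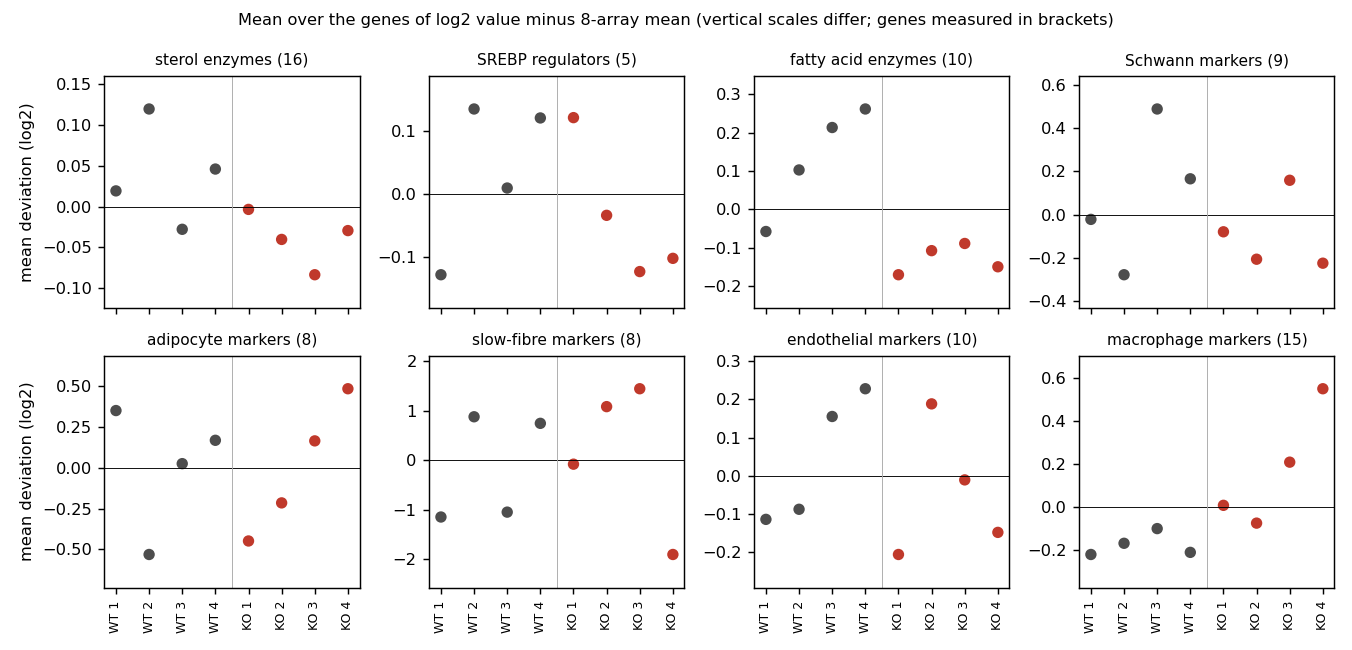
Mean over the genes of each list of the log2 value minus the gene's 8-array mean, for wild types (WT, grey) and knockouts (KO, red) 1 to 4, with the number of genes in brackets and vertical scales that differ. By this mean the fatty acid enzymes of the 4 knockouts all lie below those of the 4 wild types, with wild type 1 at -0.06 close to knockout 3 at -0.09. Macrophage markers of the 4 knockouts all lie above those of the 4 wild types. How often list means are apart in this way was not counted. Schwann markers peak in wild type 3, and adipocyte markers are lowest in wild type 2 and knockout 1.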

How the data were processed

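RNA of 8 muscles was measured on 1 Affymetrix whole-transcript array each. The authors deposited 1 table of log2 values. The submitters' processing notes name RMA and Affymetrix Expression Console, without settings or version, and no array build was found in the sources used here. RMA corrects background, normalizes between arrays and summarises probes, and compresses differences of dim transcripts. Array medians lay between 4.61 and 4.72. Of 35556 transcript clusters, 21789 had 1 gene symbol, 1621 several and 12146 were unnamed here; symbols were matched by Entrez number to a GRCm38.p6 RefSeq table. The cluster with the highest mean over 8 arrays represented a gene (19938 genes, no filter).

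Knockout minus wild type was fitted by limma (version 3.58.1, under R 4.3.3; lmFit, then eBayes) to the whole gene table. P-values were adjusted by the Benjamini-Hochberg method across that table, with 0.05 as the threshold. The fitting code was first tested on simulated data with planted changes wider than any member difference, so that test does not cover changes of their size. Groups and replicate numbers came from the sample titles. The labels call the arrays biological replicates, 1 animal each. The members, lists, motifs and alternatives were chosen with earlier results of these data known. Values by array were given for the 4 sterol enzymes, 4 fatty acid enzymes and 2 regulators with the smallest unadjusted p, for 8 members fixed by name (Srebf1, Srebf2, Insig1, Hmgcs1, Fasn, Scd1, Acly and Elovl6), and for Scd2. From each pathway list the 2 genes with the smallest unadjusted p were named. Alternatives were other normalizations, filters, clusters, variance models, array weights, a replicate block and leaving out arrays. Figures used matplotlib 3.10.9 in Python 3.11.15.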

Additional observations from a re-analysis of the deposited data

Results flagged for a closer look

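Among 68 groups of 4 values examined for the members and their 3 list means, 7 had an array far from the rest of its group by Dixon's 95% criterion, and chance flags about 1 in 20 groups. In wild type these were Sqle at 3.90 in wild type 3, Acly at 5.64, Scd2 at 7.34 and Acss2 at 7.05, these last 3 in wild type 1, and Scd1 at 8.89 in wild type 2. In knockout they were Insig1 at 6.26 in knockout 3 and Scd2 at 8.24 in knockout 1. Wild type 1 was thus low for 3 fatty acid genes at once, each at a level within the range of the knockouts. Their difference between genotypes without wild type 1 was -0.27 for Acly, -0.68 for Scd2 and -0.19 for Acss2, and 0 of the 3 passed over all genes. These genes were flagged for a low wild type 1, so leaving it out had to make their differences more negative.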

How the results depend on the processing

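No member passed over all genes by limma under any of the alternatives, where the smallest limma adjusted p was 0.166. Of 582 member differences under an alternative, 558 kept their sign and 24, from 11 members, turned, 1 of these members in the fatty acid branch. With array weights Fdft1 was 0.00192, Insig1 0.0379, Insig2 0.0250 and Acss2 0.00948. Without wild type 2 and knockout 4 together Fdft1 was 0.00682, Lss 0.0544, Insig1 0.00194, Insig2 0.0762 and Acss2 0.0904. Leaving out each array in turn gave ranges of -0.00924 to 0.0868 for Mvk, -0.0577 to 0.111 for Pmvk, -0.146 to 0.0287 for Mvd, -0.148 to 0.0110 for Fdft1, -0.0771 to 0.0264 for Dhcr7, -0.0672 to 0.189 for Ebp, -0.158 to 0.0128 for Insig1, -0.112 to 0.0413 for Insig2, -0.240 to 0.0204 for Srebf1 and -0.217 to 0.0623 for Acss2. The 3 branch medians stayed below 0 under every alternative run. They ran from -0.295 to -0.159 for the fatty acid enzymes, from -0.101 to -0.0398 for the sterol enzymes and from -0.136 to -0.00688 for the regulators. Each moved by less than the SD of its list mean between animals (0.104, 0.0495 and 0.116). The alternatives reuse most or all of the same arrays, so a shift within that SD was nearly fixed beforehand and says little. For the regulators that SD is also wider than the distance of the median from 0. The number of genes called over the whole array, 3, was 2 after quantile or cyclic loess normalization, with 1 higher and 1 lower in place of 1 and 2. It was 11 and 13 without the dimmest 25% and 50% of genes, 17 with an intensity trend and robust prior, 16 at a 10% false discovery rate, 0 over all 35556 clusters (2211 at an unadjusted p under 0.05), 1 without wild type 2 and knockout 4, and 0 to 5 when 1 array was left out (836 to 1523 at an unadjusted p under 0.05); the cause was not tested. The replicate number as a block gave 0 called genes by limma (1286 at an unadjusted p under 0.05). The labels do not say that a number marks a shared litter or day, and deviations of same-numbered arrays correlated at 0.09, 0.07, 0.22 and -0.10, so the numbers were not taken as pairs. Depth in the sequencing sense does not apply, and the median SE of 0.105 log2 units limits what 4 arrays per group can show.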
